A study of Mus musculus with 6 samples.

Results

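Fatty acid oxidation enzymes were followed as a set of 39 genes of the mouse heart, taken by gene name from the deposited count table and grouped by their step in the pathway. All 39 were found among the 49315 genes of the table, and all 39 passed the filter on low counts that left 14370 genes for testing. The lowest count of any of them in any library was 54 reads and the highest 193039. The samples were mid-ventricular heart tissue of adult mice in 2 groups of 3, WT and TET2KO, the second labelled as lacking Tet2 in endothelial cells only. Every mouse in both groups had received Angiotensin II, a peptide hormone that raises blood pressure, at 1.0 mg/kg/day from a pump under the skin for 28 days, so no untreated heart was compared. The sources used here name neither the promoter that drives the endothelial deletion nor the deleted exons, the strain or the sex. Poly(A) RNA was sequenced as read pairs of 150 nt.

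Fatty acids are the main fuel of the adult heart. They are taken up, bound to a carrier protein, linked to coenzyme A (CoA) by acyl-CoA synthetases, and passed into the mitochondrion as carnitine esters. Inside, each round of β-oxidation shortens the chain through an acyl-CoA dehydrogenase, an enoyl-CoA hydratase, a 3-hydroxyacyl-CoA dehydrogenase and a thiolase, and the electrons leave through electron transfer flavoprotein. Entry is held back by malonyl-CoA, which inhibits carnitine palmitoyltransferase at the outer membrane. The genes are known targets of the nuclear receptor PPAR alpha, and in the failing or overloaded heart the pathway is known for lower expression.

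The libraries held 22124844 to 30418909 reads in genes, and their TMM scaling factors ran from 0.808 to 1.22. Tet2, the deleted gene, went against the labels: CPM (counts scaled to a common library size, here by TMM) was 4.27, 4.33 and 3.08 in the WT libraries and 14.6, 8.01 and 10.4 in the libraries labelled TET2KO, a log2 difference of 1.49 ± 0.29 (SE, adjusted p = 0.0065). After removal of the length trend described below, the difference was 0.27 ± 0.17 (adjusted p = 0.21). The higher count goes against the label, and where the Tet2 reads lie relative to the deleted exons was not tested. Group names below are those of the labels. Of 8 cardiomyocyte markers all were tested and 4 were higher and 3 lower in the libraries labelled TET2KO, and their summed level was 65605 to 82764 CPM in WT and 45957 to 50098 CPM in TET2KO. The 5 erythroid markers were all lower, with sums of 1554 to 7037 CPM against 165 to 741 CPM. Of 8 endothelial markers 6 were higher and 2 lower, with sums of 451 to 494 CPM against 491 to 898 CPM. Fibroblast markers were 4 higher and 3 lower of 7, and smooth muscle and pericyte markers 2 higher and 3 lower of 7. Macrophage markers were 2 higher and 1 lower of 6. Of all tested genes, 33.4% were higher and 29.4% lower. After removal of the length trend, 4 cardiomyocyte markers were higher and 2 lower, 0 and 5 erythroid, and 4 and 1 endothelial. Fibroblast markers were then 1 and 0, smooth muscle and pericyte markers 2 and 3, and macrophage markers 1 and 1. Of all genes, 21.8% were then higher and 24.3% lower. Of 7 adipocyte markers, which would show fat with its own oxidation enzymes, only 2 passed the filter on low counts. These 2 summed to 1.08 to 4.32 CPM over all 6 libraries. Lep and Ucp1 stood at 0 in 4 and 4 of the libraries. The part of these shifts in the results below was not tested, and in whole tissue fewer cells of a type and less RNA per cell cannot be told apart.

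As counted, 10 of the 39 genes rose in the TET2KO-labelled libraries, 12 fell and 17 did not pass the test (edgeR's quasi-likelihood test, Benjamini-Hochberg adjusted p below 0.05 over all tested genes). Across all 14370 genes 62.9% passed, 33.4% higher and 29.4% lower, so the share of the oxidation genes that passed was close to that of genes in general. Their median log2 fold change was -0.13, beside 0.05 for all genes. As counted, directions differed between steps. In the carnitine shuttle and its malonyl-CoA control 5 of 7 rose (the shuttle genes Cpt1a, Cpt1b, Cpt2 and Crat, and Acacb, which makes malonyl-CoA), while 5 of 9 auxiliary enzymes, thioesterases and uncoupling proteins fell (Ech1, Eci1, Eci2, Decr1 and Acot13). The median transcript lengths of these 2 steps differed too, at 3062 and 2196 nt. After removal of the length trend described below, 4 of the 7 rose and 3 of the 9 fell. Slc25a20, the carnitine-acylcarnitine carrier, is outside the set and fell, as given below. In 29 of the 39 genes the CPM of the 3 WT and the 3 TET2KO libraries did not overlap, against 73.5% of all genes. TET2KO replicate 2 lay nearer to the WT mean than both other TET2KO libraries in 30 of the 39. The share of all genes that did so was not computed, but this library stood apart over genes in general. The chi-square per gene between 2 libraries was 286.3 for TET2KO replicates 1 and 2 and 132.1 for 2 and 3. For replicates 1 and 3 it was 45.3. Without TET2KO replicate 2, 11 rose and 17 fell, against 39.8% and 35.3% of the genes then tested.

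**Figure D1:**
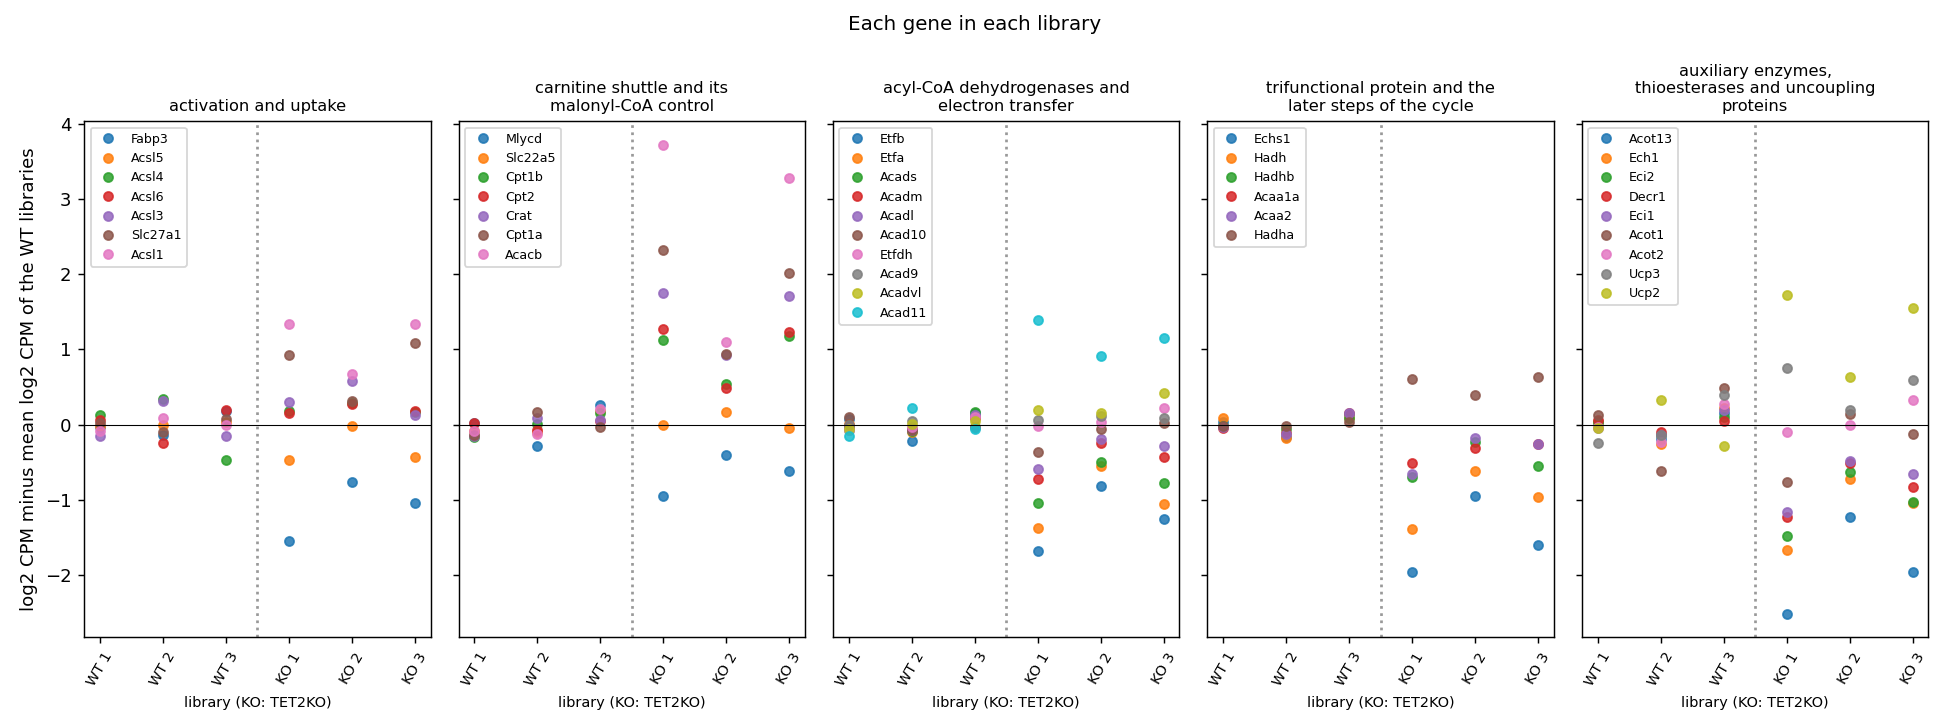
Each point is the log2 CPM of a gene in a library less its mean log2 CPM in the WT libraries, in 1 panel per step. In the panel of the carnitine shuttle and its malonyl-CoA control, Acacb and Cpt1a lie highest in TET2KO replicates 1 and 3. TET2KO replicate 2 lies nearer to WT in 30 of the 39 genes, a share that was not computed over all genes.

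A general trend with transcript length runs through this comparison, and each gene is therefore given beside it. Genes whose longest transcript has at most 1500 nt had a median log2 fold change of -1.10, and 68.3% of them fell. For genes over 4500 nt it was 1.12, and 64.3% rose. The 6 oxidation genes of up to 1500 nt (Acot13, Ech1, Eci1, Etfa, Etfb and Fabp3) all fell, and of the 9 between 3500 and 4500 nt 5 rose and 0 fell. Of the 3 over 4500 nt, Acacb rose and Acsl4 and Acsl6 did not pass, with a median of 0.19. Spearman's rho between log2 fold change and length was 0.81 over the 39 genes and 0.61 over the 14341 tested genes with a length, points that share the same 6 libraries. A second estimate removed a smooth trend on transcript length and GC content from each library, and the values are given below as "trend removed". This removes any real difference that follows length along with a technical one, and which of the 2 it is was not tested. After removal rho was 0.33 over the 39 genes and 0.08 over all.

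After removal of this trend, 8 of the 39 genes rose and 10 fell, against a background of 46.1% called, 21.8% higher and 24.3% lower. The median of the 39 was 0.05. A version based on merged exon length gave 9 higher and 16 lower, where 50.4% of all genes passed, 24.0% higher and 26.4% lower. This version left more of the trend with transcript length, with rho at 0.42 over the 39 genes and 0.28 over all. The genes that passed in the same direction both as counted and with the trend removed were 6 that rose (Acsl1, Cpt1a, Cpt1b, Cpt2, Acacb and Acad11) and 7 that fell (Mlycd, Acads, Hadh, Echs1, Eci2, Decr1 and Acot13), where 32.7% of all genes did so. In all 3 estimates 4 rose (Cpt1a, Cpt1b, Cpt2 and Acacb) and the same 7 fell, where 29.2% of all genes held. Removing the trend ended 9 calls (Slc27a1, Crat, Hadha and Ucp2 higher, Fabp3, Etfa, Etfb, Ech1 and Eci1 lower) and added 5 (Acadl and Etfdh higher, Acsl5, Acad10 and Acaa1a lower). Scaling moves the balance too. With total library size in place of TMM the median of all genes shifted by 0.43 on the log2 scale, and 18 of the 39 rose and 6 fell, beside 45.5% and 15.8% of all genes. On the deposited TPM, as log2(TPM + 1), the median of all genes shifted by 0.37 and 19 rose and 3 fell, beside 49.8% and 13.0%. Falls were the calls lost: Mlycd, Acads, Etfa, Hadh, Eci1 and Decr1 did not pass under either scaling, and Fabp3 (-0.48), Ech1 (-0.51) and Eci2 (-0.41) did not pass on log2(TPM + 1). Directions below are therefore relative to the middle of all genes, by TMM.

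**Figure D2:**
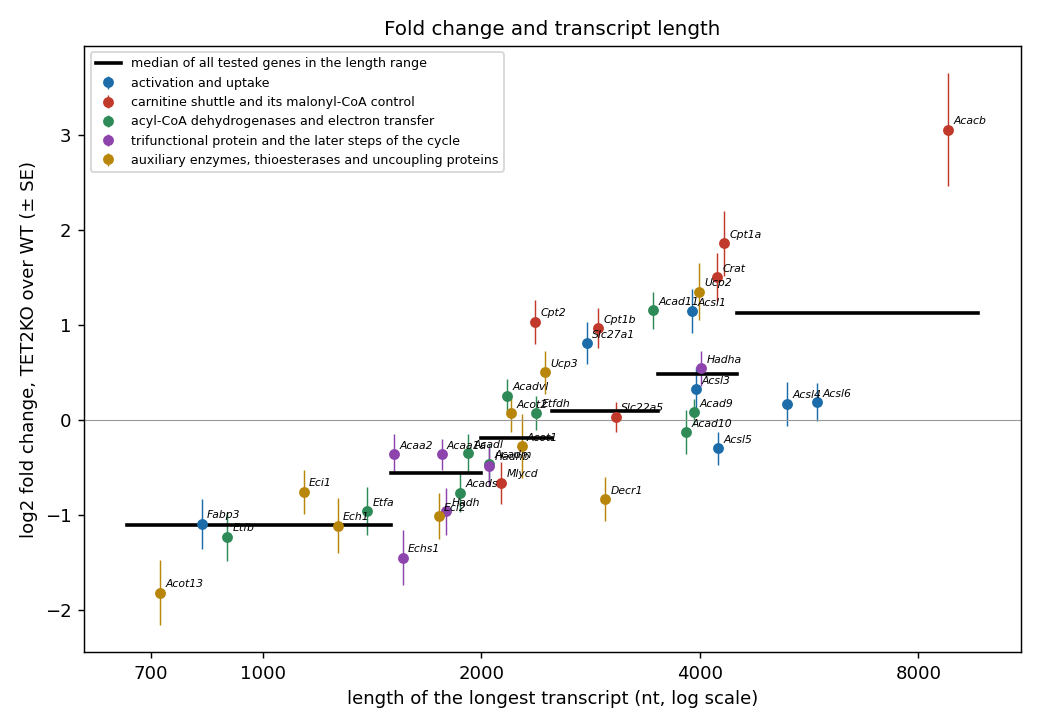
The log2 fold change of each gene (TET2KO over WT, ± SE, n = 3 per group) is plotted against the length of its longest transcript on a log axis, coloured by step, with black bars for the median of all tested genes in each length range. The genes rise from left to right with the black bars (rho = 0.81), and Acot13 and Acacb lie at the ends.

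**Figure D3:**
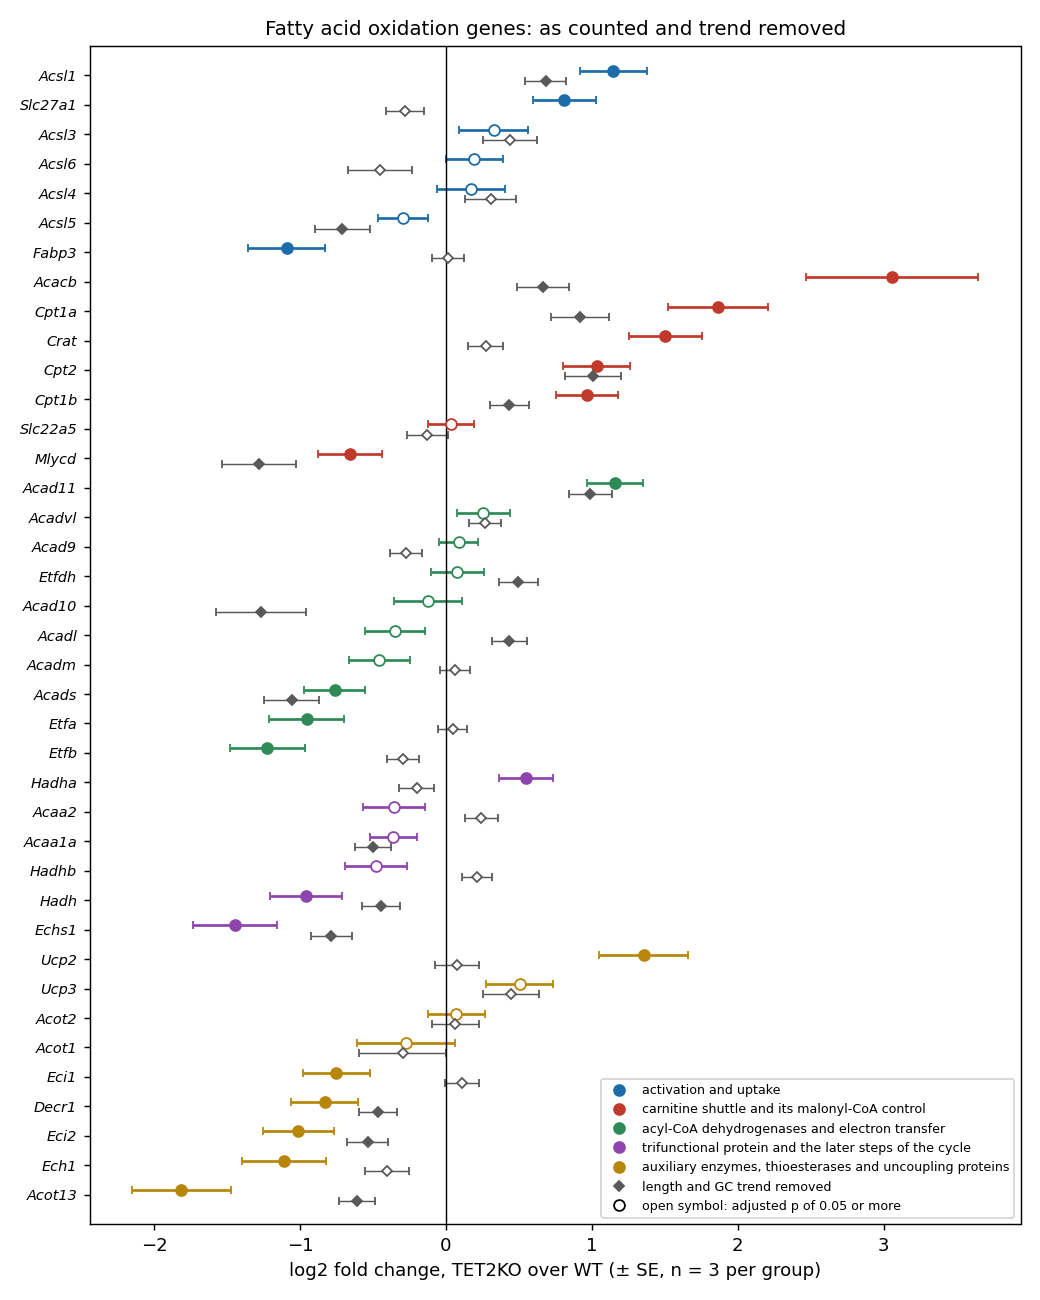
Circles give the log2 fold change as counted and grey diamonds the value with the length and GC trend removed, each with its SE (n = 3 per group), ordered by step. Filled symbols passed the test. Cpt1a, Cpt1b, Cpt2 and Acacb lie to the right of 0 and Echs1 and Acot13 to the left in both estimates.

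In the step of the carnitine shuttle and its malonyl-CoA control, 5 of 7 genes rose as counted and 4 with the trend removed, and 1 fell in both. Cpt1a encodes the form of carnitine palmitoyltransferase 1 best known from liver, which makes acylcarnitine at the outer mitochondrial membrane (ENSMUSG00000024900, chr19:3322334-3385733 on GRCm38). Its CPM was 7.06, 8.71 and 7.56 in WT and 38.8, 14.8 and 31.2 in the libraries labelled TET2KO. All TET2KO libraries lay above all WT libraries, replicate 2 lowest of them, and the rise was 3.64-fold, with a log2 fold change of 1.86 ± 0.34 (adjusted p = 0.0065). Removing the trend left 0.92 ± 0.20 (adjusted p = 0.0073), and the gene kept its call and direction in all 16 alternatives. Cpt1b encodes the muscle form of the same enzyme and is the main form of the adult heart (ENSMUSG00000078937, chr15:89416405-89425863). Its CPM was 43.9, 49.3 and 54.9 in WT and 108, 71.2 and 111 in TET2KO, again without overlap. The log2 fold change was 0.97 ± 0.21 (adjusted p = 0.0074) as counted and 0.44 ± 0.14 (adjusted p = 0.028) with the trend removed. The trend-removed call of Cpt1b was lost when WT replicate 1 (0.35) or 2 (0.41) or TET2KO replicate 3 (0.35) was left out. The annotation places a read-through gene, Gm44502, over 81.38% of the Cpt1b exons on the same strand, and that gene is not in the count table, so how shared reads were assigned is not known.

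Cpt2 encodes the inner-membrane transferase that turns acylcarnitine back into acyl-CoA (ENSMUSG00000028607, chr4:107903981-107923610). Its CPM was 65.4, 61.5 and 66.4 in WT and 155, 90.2 and 151 in TET2KO. The groups did not overlap, and the log2 fold change was 1.03 ± 0.23 (adjusted p = 0.0077). Its transcript has 2372 nt, and removing the trend left 1.01 ± 0.19 (adjusted p = 0.0049). Crat encodes carnitine acetyltransferase, which buffers acetyl-CoA as acetylcarnitine. Crat stood at 116 ± 10.3 CPM (SD, n = 3) in WT and 328 ± 93.8 CPM in TET2KO, a log2 fold change of 1.5 ± 0.25 (adjusted p = 0.0065), but 0.27 ± 0.12 (adjusted p = 0.089) with the trend removed and 0.53 ± 0.14 (adjusted p = 0.015) with merged exon length. Slc22a5 encodes the carnitine importer of the plasma membrane and stood at 23.9 ± 2.61 CPM and 24.5 ± 1.98 CPM, a difference of 0.04 ± 0.16 (adjusted p = 0.85).

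A gene that makes malonyl-CoA and a gene that removes it moved in opposite directions. Acacb encodes the mitochondrial acetyl-CoA carboxylase, which makes malonyl-CoA (ENSMUSG00000042010, chr5:114146535-114250761). Its CPM was 14.2, 13.8 and 17.4 in WT and 199, 32.2 and 146 in TET2KO, where replicate 2 lay far below the other libraries but above every WT library. The rise was 8.32-fold, log2 3.06 ± 0.59 (adjusted p = 0.0065), and the transcript, at 8788 nt, is the longest of the set. The trend-removed value was 0.66 ± 0.18 (adjusted p = 0.016), a call lost when WT replicate 1 (0.61) or 2 (0.62) or TET2KO replicate 3 (0.57) was left out. Mlycd encodes malonyl-CoA decarboxylase, which removes malonyl-CoA. Its CPM was 192, 156 and 228 in WT and 98.2, 143 and 124 in TET2KO, and the highest TET2KO library lay just below the lowest WT library. The log2 fold change was -0.66 ± 0.22 (adjusted p = 0.031) as counted and -1.28 ± 0.25 (adjusted p = 0.0053) with the trend removed. As counted, the Mlycd call was lost when WT replicate 1 (-0.67) or 3 (-0.52) or TET2KO replicate 1 (-0.49) or 3 (-0.63) was left out, while the trend-removed call was kept in each case. The call as counted was also lost under total library size (-0.23) and on log2(TPM + 1) (-0.02), and mean TPM was 101 ± 10.8 in WT and 99.2 ± 9.10 in TET2KO.

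Promoter sequences were read from RefSeq (GRCm38.p6) as the 250 bases before each start, and 33 of the 39 genes had an entry, with none for Acaa2, Acad9, Acot13, Cpt1b, Crat or Decr1. Cpt1a and Cpt2, which rose in all 3 estimates, and Echs1, which fell in all 3, are printed 5′ to 3′ with matches in capitals to the nuclear receptor half-site AGGTCA or the GC box GGGCGG on either strand; no match of the half-site overlaps a match of the GC box.
Cpt1a, chr19:3323051-3323300, plus strand: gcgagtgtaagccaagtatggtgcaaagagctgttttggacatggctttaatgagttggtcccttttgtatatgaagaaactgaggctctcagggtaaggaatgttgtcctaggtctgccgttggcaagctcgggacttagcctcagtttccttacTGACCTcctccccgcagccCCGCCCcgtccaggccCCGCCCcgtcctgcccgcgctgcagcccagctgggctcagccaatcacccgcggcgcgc
Cpt2, chr4:107923590-107923839, minus strand: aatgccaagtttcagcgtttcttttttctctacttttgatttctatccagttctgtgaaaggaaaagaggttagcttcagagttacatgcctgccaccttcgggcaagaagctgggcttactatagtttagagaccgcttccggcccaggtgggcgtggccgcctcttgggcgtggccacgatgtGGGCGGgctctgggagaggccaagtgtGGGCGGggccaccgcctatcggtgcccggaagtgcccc
Echs1, chr7:140116422-140116671, minus strand: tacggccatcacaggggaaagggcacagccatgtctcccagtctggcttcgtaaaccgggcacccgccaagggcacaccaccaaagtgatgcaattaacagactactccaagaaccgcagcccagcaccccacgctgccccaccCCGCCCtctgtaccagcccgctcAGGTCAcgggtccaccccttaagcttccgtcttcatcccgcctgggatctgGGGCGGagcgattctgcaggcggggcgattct
The half-site letters are in 6 of 38 windows of the oxidation genes (Acadm, Acadvl, Acsl6, Cpt1a, Echs1 and Ucp3), against 14.0% of all 32851 windows. The GC box is in 24 of the 38, against 32.7%. The direct repeat AGGTCANAGGTCA, which contains the half-site at each end and is in 0.0335% of all windows on either strand, is in 0 of the 38. The printed genes with a half-site, Cpt1a and Echs1, moved in opposite directions in the counts. A match is a description of the letters, not of binding.

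Activation and uptake held 7 genes, of which 2 rose, 1 fell and 4 did not pass. Acsl1 encodes the main long-chain acyl-CoA synthetase of the heart (ENSMUSG00000018796, chr8:46471037-46536051). Its CPM was 269, 303 and 285 in WT and 721, 457 and 722 in TET2KO. No library of one group reached the other, and the log2 fold change was 1.15 ± 0.23 (adjusted p = 0.0065), or 0.68 ± 0.14 (adjusted p = 0.0061) with the trend removed. With merged exon length, however, it was 0.03 ± 0.15 (adjusted p = 0.89). The other synthetases did not pass as counted, with log2 fold changes of 0.33 ± 0.24 for Acsl3, 0.17 ± 0.23 for Acsl4, -0.30 ± 0.17 for Acsl5 and 0.19 ± 0.20 for Acsl6. With merged exon length Acsl3 (0.70 ± 0.20, adjusted p = 0.019) and Acsl4 (0.66 ± 0.21, adjusted p = 0.029) passed. Acsl5 passed with the trend removed (-0.71 ± 0.19, adjusted p = 0.015), a call lost without WT replicate 3 (-0.67) or TET2KO replicate 3 (-0.63). Per length, Acsl1 made up 66.9% ± 1.03 (SD, n = 3) of the TPM of the 5 synthetases in WT and 82.1% ± 6.20 in TET2KO.

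Fabp3, the heart fatty acid binding protein and the most abundant gene of the set per length, depended on the trend (ENSMUSG00000028773, chr4:130308595-130315463). Its CPM was 8498, 7891 and 9838 in WT and 2974, 5128 and 4219 in TET2KO. The groups lay far apart, and the gene fell 2.13-fold as counted, log2 -1.09 ± 0.26 (adjusted p = 0.0099). Its transcript has 823 nt, a length at which most genes fell, and with the trend removed the difference was 0.02 ± 0.11 (adjusted p = 0.92). Slc27a1, which encodes a fatty acid transport protein, stood at 46.4 ± 2.75 CPM and 81.4 ± 21.1 CPM. It rose as counted (0.81 ± 0.22, adjusted p = 0.014) and stood at -0.28 ± 0.13 (adjusted p = 0.11) with the trend removed, while with merged exon length it was lower and passed (-0.71 ± 0.18, adjusted p = 0.014). The Slc27a1 call as counted was lost when any WT library (0.81, 0.75 and 0.84 without replicates 1, 2 and 3) or TET2KO replicate 3 (0.70) was left out.

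Among the acyl-CoA dehydrogenases and the electron transfer genes, 1 of 10 rose as counted, 3 fell and 6 did not pass. The enzymes take chains of different length: Acadvl very long, Acadl long, Acadm medium and Acads short. Acadvl CPM was 543, 569.8 and 584 in WT and 647, 626 and 754 in TET2KO. The groups did not overlap, but the log2 fold change of 0.26 ± 0.18 did not pass (adjusted p = 0.24), nor did the trend-removed value of 0.27 ± 0.11 (adjusted p = 0.077). Acadvl shares 42.85% of its exons with Dvl2 on the opposite strand, and since the strand setting of the counting is not given, reads of the 2 cannot be told apart. Dvl2 itself held 346 to 374 reads in WT and 550 to 770 in TET2KO. Acadl CPM was 1725, 1695 and 1942 in WT and 1179, 1563 and 1469 in TET2KO, and again the groups did not overlap. Its log2 fold change was -0.35 ± 0.21 (adjusted p = 0.17) as counted and 0.43 ± 0.12 (adjusted p = 0.017) with the trend removed, so its sign turned with the estimate. The trend-removed Acadl call was lost without WT replicate 1 (0.39), 2 (0.41) or 3 (0.46) or TET2KO replicate 3 (0.35).

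Acads, the short-chain dehydrogenase, fell in all 3 estimates (ENSMUSG00000029545, chr5:115110299-115119346). Its CPM was 403, 397 and 473 in WT and 205, 301 and 246 in TET2KO, without overlap. The log2 fold change was -0.76 ± 0.21 (adjusted p = 0.015), and -1.06 ± 0.19 (adjusted p = 0.0045) with the trend removed. The Acads call as counted was lost without WT replicate 3 (-0.68) or TET2KO replicate 3 (-0.71), and also under total library size (-0.34) and on log2(TPM + 1) (-0.14). Acadm stood at 1799 ± 97.4 CPM and 1312 ± 216 CPM and did not pass in either estimate (-0.46 ± 0.21 and 0.06 ± 0.10). Acad11, which is known to act on long and very long chains, was the dehydrogenase that rose. Its CPM was 43.6, 56.7 and 46.5 in WT and 128, 91.1 and 108 in TET2KO, all TET2KO libraries above all WT libraries. The log2 fold change was 1.16 ± 0.19 (adjusted p = 0.0065) and 0.99 ± 0.15 (adjusted p = 0.0040) with the trend removed, but 0.21 ± 0.15 (adjusted p = 0.27) with merged exon length. Acad9, also an assembly factor of respiratory complex I, did not pass as counted (0.09 ± 0.14) or with the trend removed (-0.27 ± 0.11), and was lower with merged exon length (-0.64 ± 0.18, adjusted p = 0.017). Acad10 did not pass as counted (-0.13 ± 0.23) and fell with the trend removed (-1.26 ± 0.31, adjusted p = 0.011), at a level of only 2.40 to 3.31 CPM.

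Etfa and Etfb encode the subunits of electron transfer flavoprotein, and Etfdh the oxidoreductase that hands its electrons to ubiquinone. Etfa stood at 1696 ± 115 CPM in WT and 875 ± 260 CPM in TET2KO, and Etfb at 524 ± 68.8 CPM and 225 ± 67.0 CPM. Both fell as counted, with log2 fold changes of -0.95 ± 0.25 (adjusted p = 0.014) and -1.22 ± 0.26 (adjusted p = 0.0069). Neither passed after trend removal, at 0.05 ± 0.10 and -0.30 ± 0.11 (adjusted p = 0.056), while with merged exon length Etfb was lower and passed (-0.46 ± 0.15, adjusted p = 0.030). The Etfa call was also lost when WT replicate 1 (-0.96) or 3 (-0.91) or TET2KO replicate 3 (-0.87) was left out, and under total library size (-0.53). Another annotated gene, Gm45233, covers 53.01% of the Etfb exons on the same strand and held 0 to 9 reads per library. How reads shared with Etfb were assigned is not known. Etfdh, at 2377 nt the longest of the 3, had a log2 fold change of 0.08 ± 0.18 as counted and 0.50 ± 0.13 (adjusted p = 0.015) with the trend removed. That call was lost when WT replicate 1 (0.46) or 2 (0.48) or TET2KO replicate 3 (0.40) was left out. With merged exon length the sign turned, and Etfdh was lower and passed (-0.47 ± 0.17, adjusted p = 0.046).

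The trifunctional protein and the later steps of the cycle held 6 genes, of which 1 rose, 2 fell and 3 did not pass. Hadha and Hadhb encode the 2 subunits of the trifunctional protein, which carries the last 3 reactions for long chains, and start 273 nt apart on opposite strands of chromosome 5. The window before Hadhb is printed with the 228 bases that it shares with the window before Hadha in capitals.
Hadhb, chr5:30155003-30155252, plus strand: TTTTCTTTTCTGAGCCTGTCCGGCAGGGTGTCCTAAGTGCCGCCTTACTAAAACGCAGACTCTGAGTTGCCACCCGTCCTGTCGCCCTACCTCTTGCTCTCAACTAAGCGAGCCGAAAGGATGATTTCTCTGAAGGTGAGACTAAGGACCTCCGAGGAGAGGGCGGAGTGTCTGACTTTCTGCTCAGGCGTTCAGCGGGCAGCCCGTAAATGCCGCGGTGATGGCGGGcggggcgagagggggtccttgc
Hadha CPM was 717, 711 and 744 in WT and 1104, 946 and 1127 in TET2KO, so all TET2KO libraries lay higher. The partner went the other way: Hadhb CPM was 2041, 1986 and 2213 in WT and 1278, 1775 and 1422 in TET2KO, all TET2KO libraries lower. As counted, Hadha rose by 0.55 ± 0.18 (adjusted p = 0.032), while Hadhb, at -0.48 ± 0.21, did not pass (adjusted p = 0.077). Their transcripts have 4017 and 2048 nt. Neither passed after trend removal, at -0.20 ± 0.12 (adjusted p = 0.19) and 0.21 ± 0.10 (adjusted p = 0.11), each with its sign turned. With merged exon length both were lower and passed, Hadha at -0.56 ± 0.20 (adjusted p = 0.046), against its rise as counted, and Hadhb at -0.72 ± 0.19 (adjusted p = 0.015). The Hadha call as counted was lost without WT replicate 1 (0.53), 2 (0.53) or 3 (0.56) or TET2KO replicate 3 (0.54). Without TET2KO replicate 2, Hadhb passed (-0.60).

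Echs1, the short-chain enoyl-CoA hydratase, fell most of its step as counted (ENSMUSG00000025465, chr7:140105710-140116476). Its CPM was 1362, 1187 and 1462 in WT and 343, 689 and 439.7 in TET2KO, with a wide gap between the groups. It fell 2.73-fold, log2 -1.45 ± 0.29 (adjusted p = 0.0065), and -0.78 ± 0.14 (adjusted p = 0.0045) with the trend removed, and kept its call in all 16 alternatives. Hadh encodes the short- and medium-chain 3-hydroxyacyl-CoA dehydrogenase. Its CPM was 1630.4, 1348 and 1624 in WT and 585, 999 and 784 in TET2KO, also without overlap. The log2 fold change was -0.96 ± 0.25 (adjusted p = 0.012), and -0.44 ± 0.13 (adjusted p = 0.023) with the trend removed. Both Hadh calls were lost when WT replicate 1 (-0.92 and -0.41) or 3 (-0.92 and -0.44) or TET2KO replicate 3 (-0.91 and -0.47) was left out, and the call as counted under total library size (-0.53) and on log2(TPM + 1) (-0.35). The thiolases did not pass as counted: Acaa2, the mitochondrial 3-ketoacyl-CoA thiolase, stood at -0.36 ± 0.21 and the peroxisomal Acaa1a at -0.36 ± 0.16. Acaa1a fell with the trend removed (-0.50 ± 0.12, adjusted p = 0.011), a call lost without WT replicate 3 (-0.46), while Acaa2 stood at 0.24 ± 0.11 (adjusted p = 0.11) and passed as higher with merged exon length (0.43 ± 0.14, adjusted p = 0.036).

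Auxiliary enzymes move double bonds so that unsaturated chains can enter the cycle, and all 4 (Ech1, Eci1, Eci2 and Decr1) fell as counted, where 29.4% of all genes and 68.3% of those of up to 1500 nt, like Ech1 and Eci1, did so. With the trend removed 2 of the 4, Eci2 and Decr1, passed. Eci2 encodes an enoyl-CoA isomerase. Its CPM was 397, 351 and 415 in WT and 139, 249 and 189 in TET2KO, and the log2 fold change was -1.01 ± 0.24 (adjusted p = 0.0097), or -0.54 ± 0.14 (adjusted p = 0.014) with the trend removed. Without WT replicate 1 (-0.53) or WT replicate 3 (-0.52) the trend-removed call was lost. Decr1 encodes the mitochondrial 2,4-dienoyl-CoA reductase. Its CPM was 839, 754 and 831 in WT and 342, 568 and 452 in TET2KO, and the log2 fold change was -0.83 ± 0.23 (adjusted p = 0.016), or -0.47 ± 0.13 (adjusted p = 0.018) with the trend removed. In both genes all TET2KO libraries lay below all WT libraries, with replicate 2 the highest of them. Both Decr1 calls were lost when WT replicate 1 (-0.81 and -0.45) or 3 (-0.82 and -0.45) or TET2KO replicate 3 (-0.79 and -0.50) was left out, and the call as counted under total library size (-0.41) and on log2(TPM + 1) (-0.22). Ech1, a dienoyl-CoA isomerase, and Eci1, the other mitochondrial enoyl-CoA isomerase, fell as counted (-1.11 ± 0.29 and -0.75 ± 0.23) and did not pass with the trend removed (-0.41 ± 0.15, adjusted p = 0.051, and 0.11 ± 0.12, adjusted p = 0.46), although Ech1 passed with merged exon length (-0.86 ± 0.22, adjusted p = 0.014). The Ech1 call was lost without WT replicate 3 (-0.995) or TET2KO replicate 3 (-1.09). The Eci1 call was lost without WT replicate 1 (-0.78), 2 (-0.83) or 3 (-0.66) or TET2KO replicate 3 (-0.75), and under total library size (-0.32).

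Acot13, a thioesterase that splits acyl-CoA back into fatty acid and CoA, had the largest fall of the set as counted (ENSMUSG00000006717, chr13:24817948-24831540). Its CPM was 1254, 1062 and 1362 in WT and 213, 522 and 313 in TET2KO. The highest TET2KO library was well below the lowest WT library, and the gene fell 3.51-fold, log2 -1.81 ± 0.34 (adjusted p = 0.0065). With 721 nt it has the shortest transcript of the set, and the trend-removed value was -0.61 ± 0.12 (adjusted p = 0.0057); the call held in all 16 alternatives. Acot1 and Acot2, the cytosolic and mitochondrial type I thioesterases, did not pass (-0.27 ± 0.33 and 0.07 ± 0.20), and as near-identical neighbours their reads may have been split uncertainly. The uncoupling proteins Ucp2 and Ucp3 are carriers of the inner mitochondrial membrane. Ucp3 CPM was 31.7, 34.0 and 49.2 in WT and 63.4, 43.0 and 56.6 in TET2KO, so the groups overlapped, and the log2 fold change of 0.50 ± 0.23 did not pass (adjusted p = 0.085), nor did the trend-removed 0.45 ± 0.19 (adjusted p = 0.084). It passed without WT replicate 3 (0.71) or TET2KO replicate 2 (0.67). Ucp2 stood at 16.3 ± 3.58 CPM and 41.8 ± 14.8 CPM and rose as counted (1.35 ± 0.30, adjusted p = 0.0080), with 0.08 ± 0.15 (adjusted p = 0.69) after trend removal.

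Levels between genes were compared per length, on the deposited TPM, which the authors computed on merged exon lengths as far as the counts show (31 of 37 genes of the set within 1%). Fabp3 stood first in both groups, at 16637 ± 705 TPM in WT and 12026 ± 2096 TPM in TET2KO. In WT it was followed by Acot13 (2661 ± 115 TPM), Ech1 (1914 ± 158 TPM), Etfa (1450.5 ± 24.3 TPM) and Acadl (1399.9 ± 59.4 TPM). The WT values of Etfa and Acadl overlapped, as did those of Hadhb (496 ± 19.4 TPM) and Hadh (483 ± 22.6 TPM). In TET2KO Acadl took rank 2 (1700.4 ± 97.5 TPM) and Acot13 rank 5 (1155 ± 419 TPM). At the low end of WT lay Acad10 (0.802 ± 0.067 TPM), Acsl6 (1.498 ± 0.111 TPM), Acsl3 (2.06 ± 0.581 TPM) and Acacb (2.46 ± 0.176 TPM). Acacb stood at 33.3 ± 24.3 TPM in TET2KO. TPM was higher in every TET2KO library than in every WT library for 25 of the 39 genes and lower for 8. The same share of all genes was not computed for TPM, so whether these counts are particular to these genes is not known. On CPM the groups did not overlap in 73.5% of all genes. In the test on log2(TPM + 1), 49.8% of all genes were higher and 13.0% lower. TPM divides each gene by a fixed length, so it carries the length trend as well.

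**Figure D4:**
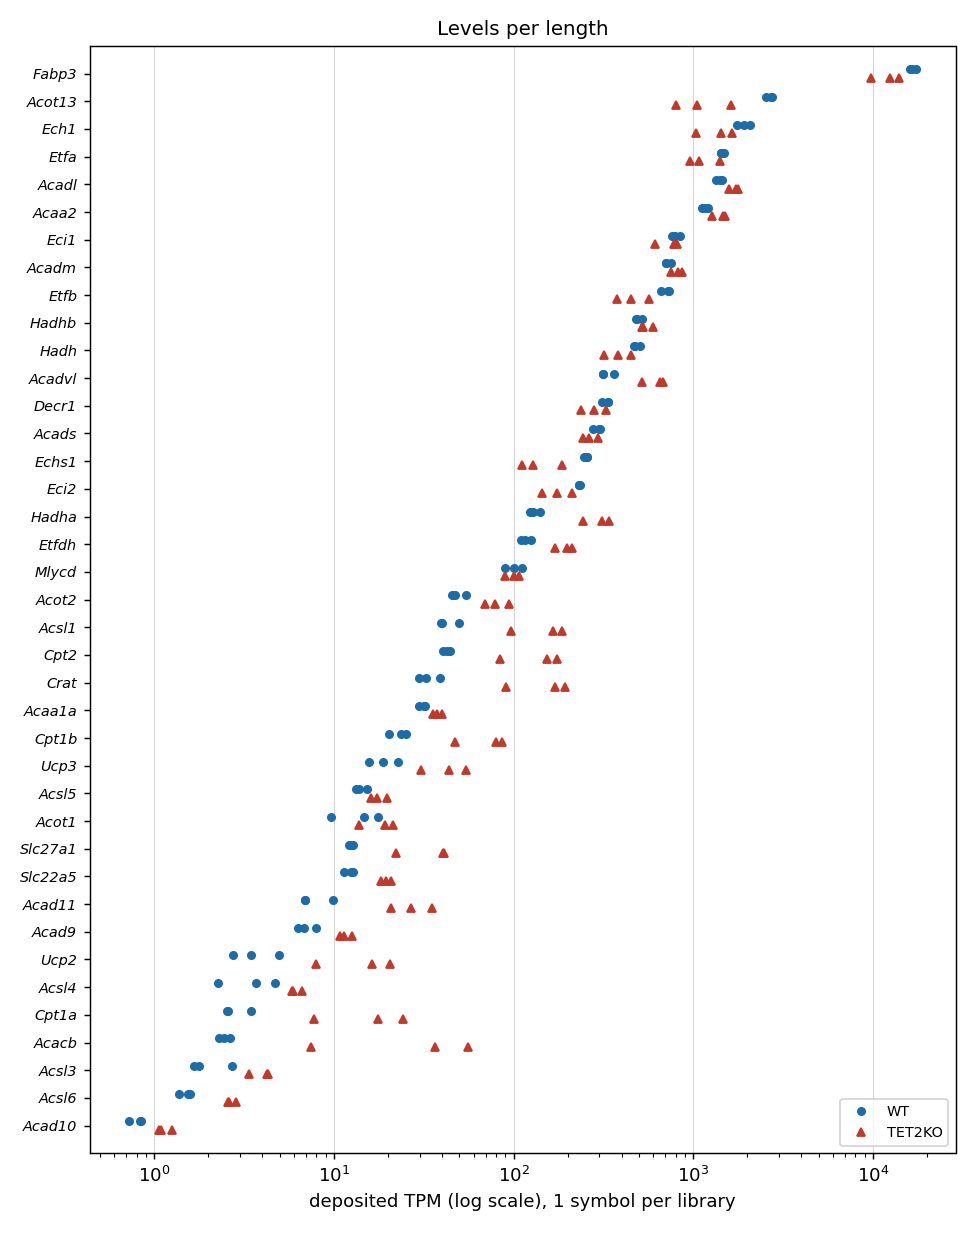
Deposited TPM of each gene in each library on a log axis, WT as blue circles and TET2KO as red triangles, ordered by the WT mean. Fabp3 is at the top in both groups and Acad10 at the bottom, and Acacb is spread from WT near 2.46 to a TET2KO mean of 33.3.

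As a share of all counted reads, the 39 genes took 2.56% ± 0.072 (SD, n = 3) in WT and 2.17% ± 0.256 in TET2KO. Activation and uptake, which includes Fabp3, stood at 0.783% ± 0.036 in WT and 0.562% ± 0.087 in TET2KO, and the carnitine shuttle with its malonyl-CoA control at 0.0402% ± 0.0018 and 0.1% ± 0.029. The dehydrogenases and electron transfer genes stood at 0.640% ± 0.012 and 0.634% ± 0.063. The later steps of the cycle took 0.592% ± 0.0069 and 0.552% ± 0.058, and the auxiliary group 0.507% ± 0.033 and 0.323% ± 0.077. These shares were not tested, and they carry the length trend in full.

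Partner genes were also set against each other within each library, as log2 ratios of TPM. Hadha to Hadhb was -1.91, -1.89 and -1.98 in WT and -0.62, -1.31 and -0.74 in TET2KO, a difference of 1.04 on the log2 scale. Once the trend was removed from each library, the difference was -0.42, the opposite sign. Cpt1b to Cpt1a was 2.99, 2.85 and 3.21 in WT and 1.82, 2.61 and 2.18 in TET2KO, a difference of -0.81, or -0.45 with the trend removed. Cpt1b thus made up 89.0% ± 1.22 of the TPM of the pair in WT and 81.9% ± 3.99 in TET2KO. Etfa to Etfb was 0.97, 1.17 and 0.99 in WT and 1.35, 1.32 and 1.25 in TET2KO, a difference of 0.26, or 0.34 with the trend removed. In all 3 ratios and on both scales the groups did not overlap. The exact two-sided permutation p was 0.1, the smallest that 3 against 3 libraries can give, also after adjustment over the 3 ratios. Ratios were not computed with merged exon length. There the log2 fold changes of Cpt1b (0.72 ± 0.17) and Cpt1a (0.76 ± 0.18) lay within their SE of each other. Hadha stood at -0.56 ± 0.20 and Hadhb at -0.72 ± 0.19, and Etfa at -0.06 ± 0.14 and Etfb at -0.46 ± 0.15.

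**Figure D5:**
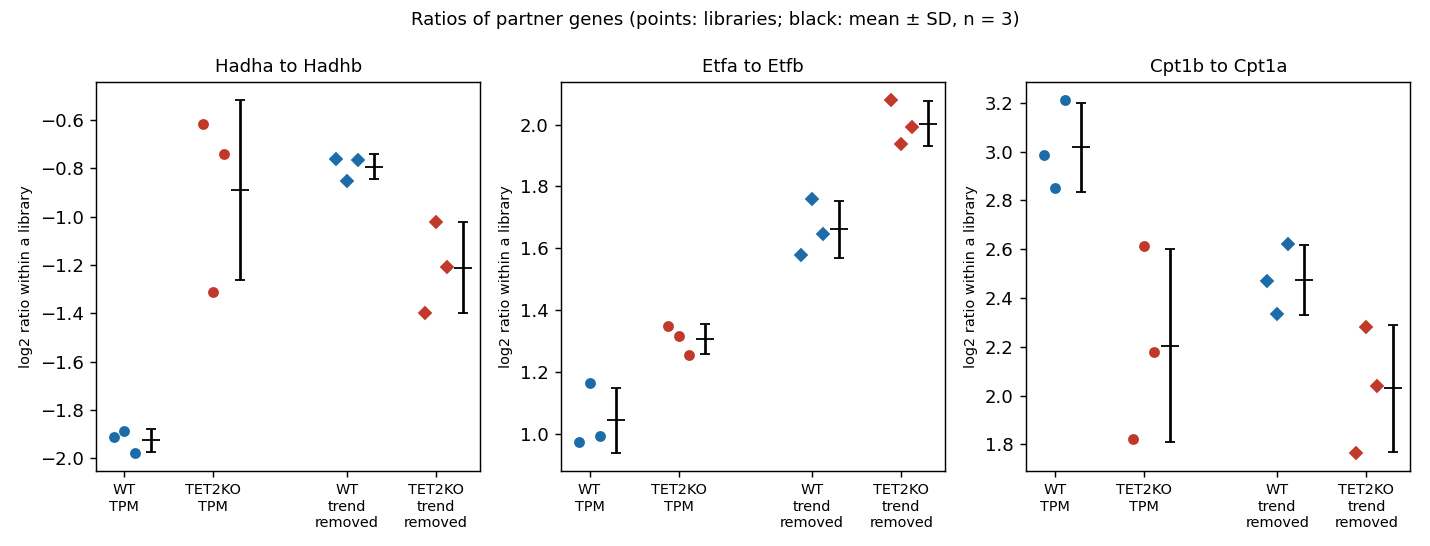
Log2 ratios of Hadha to Hadhb, Etfa to Etfb and Cpt1b to Cpt1a within each library, from TPM on the left of each panel and with the trend removed on the right, with the mean ± SD (n = 3) in black. The TET2KO points lie above WT for Hadha to Hadhb from TPM (difference 1.04) and below it with the trend removed (-0.42), while Cpt1b to Cpt1a is lower in TET2KO on both.

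Other genes of the pathway came from a list of 66, of which 62 were tested (Slc27a6, Eci3, Acox2 and Acaa1b had too few reads). As counted 21 rose, 20 fell and 21 did not pass, and with the trend removed 18 rose and 16 fell. These counts are near those of all genes, of which 33.4% rose and 29.4% fell as counted and 21.8% and 24.3% with the trend removed. Among 19 tested genes of fatty acid handling and mitochondrial oxidation, 5 rose and 8 fell as counted, and 3 rose and 6 fell with the trend removed. Slc25a20, the carnitine-acylcarnitine carrier of the inner membrane, fell from 596 ± 54.7 CPM to 282 ± 92.1 CPM (-1.08 ± 0.27, adjusted p = 0.011; trend removed -0.54 ± 0.15, adjusted p = 0.018). Cd36, a fatty acid uptake receptor, fell as counted (-0.82 ± 0.26, adjusted p = 0.024) and stood at -0.09 ± 0.12 with the trend removed. The largest rise of this list was Acsf2, an acyl-CoA synthetase (3.30 ± 0.49; trend removed 2.47 ± 0.35), and the largest fall Dbi, an acyl-CoA binding protein (-1.58 ± 0.28; trend removed -0.27 ± 0.11, adjusted p = 0.067).

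Peroxisomal oxidation, which shortens very long chains before the mitochondrion takes over, had 6 higher and 8 lower of 18 tested genes as counted. Of all genes, 33.4% were higher and 29.4% lower. With the trend removed 5 of the 18 were higher and 6 lower, beside 21.8% and 24.3% of all genes. The median log2 fold change of the 18 was -0.48 as counted and 0.06 with the trend removed. Ehhadh, the peroxisomal bifunctional enzyme, did not pass (-0.34 ± 0.20, adjusted p = 0.16). Crot, the carnitine octanoyltransferase that exports the shortened chains, fell (-0.96 ± 0.24, adjusted p = 0.012; trend removed -0.59 ± 0.15). Hacl1, the lyase of α-oxidation, fell most (-1.02 ± 0.25; trend removed -0.84 ± 0.19).

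Of 17 genes for PPAR alpha, its partners and other known targets, 10 rose, 2 fell and 5 did not pass as counted, beside 33.4% higher and 29.4% lower of all genes. After trend removal 9 rose and 2 fell, beside 21.8% and 24.3%. Ppara CPM was 5.14, 6.05 and 6.16 in WT and 22.6, 11.6 and 24.2 in TET2KO, a log2 fold change of 1.75 ± 0.30 (adjusted p = 0.0065; trend removed 1.22 ± 0.22). Ppargc1a, its coactivator, rose from 25.7 ± 1.82 CPM to 60.1 ± 17.4 CPM (1.22 ± 0.24; trend removed 0.77 ± 0.19). The largest rise was Ppard, a related receptor (3.90 ± 0.55; trend removed 2.29 ± 0.29). The other targets named differed in direction. Pdk4, a kinase that shuts off pyruvate use, did not pass as counted (0.82 ± 0.33, adjusted p = 0.057) and rose with the trend removed (0.96 ± 0.31, adjusted p = 0.031). Angptl4, a secreted lipase inhibitor, fell most of this list (-1.36 ± 0.46, adjusted p = 0.033; trend removed -1.75 ± 0.43, adjusted p = 0.011). Of 8 genes for the exits of propionyl-CoA and acetyl-CoA, 0 rose and 2 fell as counted, and 1 rose and 2 fell with the trend removed. As counted Mcee fell most (-1.45 ± 0.29), with a trend-removed value of -0.30 ± 0.11 (adjusted p = 0.053).

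In the authors' deposited table, 25 of the 39 genes had an adjusted p below 0.05, 10 higher and 15 lower, against 65.0% of the 14370 genes of that table. The authors' deposited list of significant genes, where the smallest log2 fold change in size is 1.00, holds 14 of the 39, 6 of them higher, against 43.5% of the table.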

How the data were processed

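The authors deposited raw counts per gene, TPM, and, per the file headers, log2 fold changes, p-values and a signal of counts divided by size factors. Listed in the submitters' processing notes are STAR 2.5.2b, Trimmomatic 0.36, Subread 1.5.2, featureCounts and DESeq2, with the builds mm10 and GRCm38. Neither the annotation release nor the strand setting is given in the sources used here. Replicates are labelled as separate biological samples.

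The counts were tested with edgeR 4.0.16 (TMM, filterByExpr, robust quasi-likelihood F-test, Benjamini-Hochberg at 0.05 over 14370 genes; SE was worked back from F) in R 4.3.3. The trend was a smooth surface on log2 transcript length and GC per library (mgcv 1.9.3, basis size 6 per axis, prior count 2), entered as offsets. Lengths and positions are from GENCODE M21, which held 48970 of the gene IDs. Alternatives used DESeq2 1.42.0 and limma 3.58.1. The fits were tested on simulated counts. With a length and GC trend added, 6468 of 14185 genes were called wrongly without removal and 9 with it. With removal, 78% and 100% of genes changed by log2 1 and 2 were recovered. The added trend was the surface estimated from these same libraries, of the form that the fit removes. The simulation therefore cannot show whether the real trend has that form. With no trend added, 34% of genes changed by log2 1 were recovered without removal and 35% with it. The oxidation genes, the other lists and the steps were chosen with earlier results of these data known. Values in every library are given for genes past the test in the same direction as counted and with the trend removed, and for Cpt1a, Cpt1b, Acadl, Acadvl, Hadha, Hadhb, Acsl1, Fabp3 and Ucp3. Beyond these, a set of pathway genes and the largest change in each direction of each list were to be named, and some of them are not reported here. Count-based precision is given by the SE between libraries.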

Additional observations from a re-analysis of the deposited data

How the results depend on the processing

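DESeq2 and limma-voom each gave 10 higher and 12 lower of the 39 genes, and every one of the 39 kept its direction where it passed, and its side of the threshold, under both. Over all genes DESeq2 called 4773 higher and 4011 lower, and limma-voom 4537 and 4341. Total library size gave 18 higher and 6 lower of the 39, and a median of 0.30. On log2(TPM + 1) these were 19, 3 and 0.36, and on log2(TPM + 0.1) 19, 3 and 0.46. Of all genes, 45.5% were higher and 15.8% lower with total library size, and 49.8% and 13.0% on log2(TPM + 1). On log2(TPM + 0.1), 7277 genes were higher and 1906 lower. With merged exon length the median was -0.37. Among the other pathway genes, total library size gave 8 lower, and both TPM settings 36 higher and 7 lower. The Hadha to Hadhb and Etfa to Etfb ratios moved to -0.42 and 0.34 with the trend removed. The cause was not tested.

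Without 1 library, members higher ran from 8 to 11 and lower from 5 to 17. Other pathway genes ran from 15 to 24 higher and 10 to 23 lower. The counts over all genes tested in these fits swung too, from 3370 to 5928 higher and 2479 to 5250 lower. With the trend removed members ran from 4 to 10 higher and 5 to 16 lower, and the range over all genes was not computed. The low counts came without WT replicate 1 (8 and 7 as counted, 4 and 7 with the trend removed), WT replicate 2 (4 higher with the trend removed), WT replicate 3 (5 lower in both) and TET2KO replicate 3 (5 lower as counted, 4 higher with the trend removed), and the high counts of 17 and 16 lower without TET2KO replicate 2. Other pathway genes lower were 12 without WT replicate 3 and 10 without TET2KO replicate 3. These fits hold fewer samples.

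Signs turned in genes that passed in either fit. With the trend removed, with merged exon length and with the replicate block and trend removed, Fabp3 stood at 0.0152, 0.0274 and 0.0132. In the same order Slc27a1 stood at -0.28, -0.71 and -0.28, Acadl at 0.43, 0.52 and 0.43 and Hadha at -0.20, -0.56 and -0.20. Every one of the Acadl values passed the test, as did the merged exon values of Slc27a1 and Hadha. The rest did not pass. With the trend removed, without and with the replicate block, Etfa stood at 0.0464 and 0.0462 and Eci1 at 0.11 and 0.11. With merged exon length alone, Acad9 stood at -0.64, Etfdh at -0.47 and Acaa2 at 0.43, each past the test. Ucp2 stood at -0.0246 and did not pass.

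Deviations from the group means of same-numbered replicates correlated at r = 0.04, -0.23 and -0.01 over genes. Between differently numbered replicates r ran from -0.27 to 0.26. With 3 libraries per group these values cannot show whether the samples were paired. The replicate block gave 9 higher and 10 lower of the 39 genes, and 8 and 9 with the trend removed. Over all tested genes the block gave 4070 higher and 3548 lower, and 2713 and 3007 with the trend removed. Each of the 39 genes held at least 54 reads in every library, and 3 libraries per group limit the precision.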
